A study of Mus musculus with 30 samples.

Results

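The genes described here are the hepcidin genes Hamp and Hamp2 and 8 further genes of iron sensing, uptake, export and bone morphogenetic protein (BMP) signalling, namely Tfrc, Tfr2, Hfe, Trf, Slc40a1, Id1, Smad7 and Scara5. They were chosen by name. Each is read from a probe set annotated to it alone, the brightest on average over the 30 arrays where there were several. Of the 10 genes 9 had such a probe set, among 18193 genes with a probe set of their own. Trf, which encodes transferrin, had a probe set that was annotated together with Srprb, so it has no value here. All 9 measured genes were among the 12795 tested.

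RNA from the livers of adult male mice on a C57BL/6J background was measured on Affymetrix arrays, with 3 arrays in each of 10 groups. The mice were wild type, humanised for the xenobiotic receptors CAR and PXR (hCAR/hPXR), deleted for both (CARko/PXRko) or deleted for PXR alone (PXRko). These nuclear receptors sense foreign compounds and induce drug-metabolising genes in hepatocytes. Mice received corn oil (CO, 0 mg/kg, all 4 genotypes), 1,4-dichlorobenzene (DCB, 600 mg/kg a day, a chlorinated benzene) or cyproterone acetate (CPA, 160 mg/kg a day, a synthetic steroid), each by oral gavage. Both compounds were given in all genotypes except PXRko, of which no treated group was analysed here. The corn oil and DCB groups and the CPA CARko/PXRko group are labelled 3 days, whereas CPA wild type and hCAR/hPXR mice are labelled 6 days and the protocol gives 3 days for CPA. Effects of CPA in those 2 genotypes therefore set groups of different labelled durations side by side. So do comparisons of CPA levels or CPA effects between CARko/PXRko and wild type mice. The design states 5 mice a group. The labels do not say that each array holds a separate mouse, so p-values measure the spread between these arrays, which may be partly technical. The labels do not say how the human genes were introduced or how old the adult mice were.

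Values are log2 probe set summaries, so a difference of 1 is a doubling. Differences are given ± SE from a single model over all arrays, and a gene was called when its p-value, adjusted over all 12795 genes (limma, Benjamini-Hochberg), was under 0.05. Levels of different genes come from different probes and were not compared with each other. The targeted genes went with the labels: against corn oil wild type, the difference of the CAR gene Nr1i3 was -3.29 for hCAR/hPXR and -3.35 for CARko/PXRko mice, and that of the PXR gene Nr1i2 was -2.74, -2.94 and -3.05 in hCAR/hPXR, CARko/PXRko and PXRko mice. The mean of 8 hepatocyte markers lay between 14.70 and 14.90 on all arrays. That is near the highest of all values (15.34), so a steady mean does not show that hepatocyte content was equal. Skeletal muscle markers (17 genes) stood over 1 log2 unit above corn oil wild type on 4 arrays: by 7.48 on corn oil CARko/PXRko replicate 2, by 7.08 and 2.45 on DCB CARko/PXRko replicates 3 and 2, and by 1.65 on corn oil PXRko replicate 3. The 9 measured genes were also fitted without these arrays, and their results that changed are given with and without them. For other genes and marker lists, only results with these arrays are given.

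Hepcidin is the hormone that limits iron entry into blood: hepatocytes secrete it, and it binds ferroportin, the only known cellular iron exporter, and has it degraded. Hepatocytes set its transcription through BMP ligands and SMAD proteins, with HFE, transferrin receptor 2 and hemojuvelin as partners in iron sensing, and through interleukin 6 and STAT3 in inflammation. Mice carry a pair of hepcidin genes, Hamp, which encodes the active hormone, and the neighbouring copy Hamp2. Transferrin receptor 1, from Tfrc, takes up transferrin-bound iron, and its mRNA is stabilised when cells lack iron.

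The promoters of the 2 hepcidin genes are shown because they are close copies that differ in a signalling element. Each is the 250 bases before the annotated start, on the minus strand of GRCm38.p6 in the RefSeq table: chr7:30944030-30944279 for Hamp and chr7:30924182-30924431 for Hamp2. Capitals mark the BMP-responsive element (GGCGCC) and a STAT motif (TTCNNNGAA), searched on both strands.
Hamp: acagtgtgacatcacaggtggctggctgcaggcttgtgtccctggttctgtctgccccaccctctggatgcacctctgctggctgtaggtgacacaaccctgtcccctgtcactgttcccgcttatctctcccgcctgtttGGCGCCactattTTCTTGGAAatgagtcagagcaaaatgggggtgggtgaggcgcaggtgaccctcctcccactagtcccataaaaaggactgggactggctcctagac
Hamp2: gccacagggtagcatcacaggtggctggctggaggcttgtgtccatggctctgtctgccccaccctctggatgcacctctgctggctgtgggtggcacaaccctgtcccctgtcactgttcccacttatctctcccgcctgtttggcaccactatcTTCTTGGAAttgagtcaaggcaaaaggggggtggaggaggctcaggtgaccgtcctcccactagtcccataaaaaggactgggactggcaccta

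The 2 windows had the same letter at 227 of 247 aligned bases (91.9%), with 20 substitutions. One of them, G145A, counted from 1 at the first printed base of Hamp with the Hamp base first, lies in the BMP-responsive element, and GGCGCC was present in the Hamp window, with its first base at -109 from the start, and not in the Hamp2 window. The STAT motif was present in both, at -97 in Hamp and -94 in Hamp2. The AP-1 motif TGAGTCA was also in both, at -87 and -84, and overlapped neither of the other motifs. Of 32851 promoter windows of this length, 9.59% held GGCGCC, 7.02% the STAT motif and 4.46% the AP-1 motif. These matches describe letters and are not binding sites. Whether the substitution has a part in the values of the 2 hepcidin genes was not tested. Windows were matched for 5 of the 10 genes (Hamp, Hamp2, Tfrc, Tfr2 and Hfe), and of the other 3 genes GGCGCC was found only in a window of Tfrc.

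Hamp was lowest in the liver of wild type mice given corn oil. Corn oil wild type arrays read 11.88, 11.31 and 11.79, while corn oil CARko/PXRko arrays read 13.54, 13.59 and 13.63. Corn oil hCAR/hPXR arrays read 13.76, 13.31 and 12.65, and corn oil PXRko arrays 13.11, 13.31 and 12.75. Each of the 9 arrays from receptor-modified mice lay above each of the 3 wild type arrays, with no overlap; 0.383% of tested genes were apart in that direction. Averaged over the 3 modified genotypes, Hamp was 1.63 ± 0.26 higher than in wild type mice, a 3.10-fold difference (adjusted p = 0.00399), and it was the 1 gene called of the 9 measured, against 0.0391% of all genes tested.

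Taken by genotype, the CARko/PXRko difference of 1.92 ± 0.31 was called (adjusted p = 0.00885; 0.0391% of all genes called). The hCAR/hPXR difference of 1.58 (adjusted p = 0.137; 0.0234% of genes called, and 0 of the 9) and the PXRko difference of 1.40 (adjusted p = 0.382; 0.0234% called, and 0 of the 9) were not called. Between CARko/PXRko and PXRko mice the difference was 0.53, not called (0.0156% of genes called, and 0 of the 9). Arrays of these 2 genotypes were apart, as in 9.76% of all genes in either direction. The differences from wild type mice all rest on the same 3 wild type corn oil arrays. Without wild type replicate 2, the lowest of them, the average difference was 1.46 (adjusted p = 0.181) and the CARko/PXRko difference 1.75 (adjusted p = 0.162), and neither was called. The CARko/PXRko call was also lost without corn oil CARko/PXRko replicate 1 (adjusted p = 0.0568) or replicate 3 (adjusted p = 0.0615). Without corn oil hCAR/hPXR replicate 3, the hCAR/hPXR difference was 1.87 and was called (adjusted p = 0.0332). Of 12 acute phase genes, which respond to interleukin 6 and STAT3, 0 were called in the averaged comparison, with a median difference of -0.12, and their mean level was 11.95 to 12.11 on wild type arrays and 11.27 to 12.31 on modified ones. Whether inflammation had a part in the Hamp difference was not tested further.

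**Figure D1:**
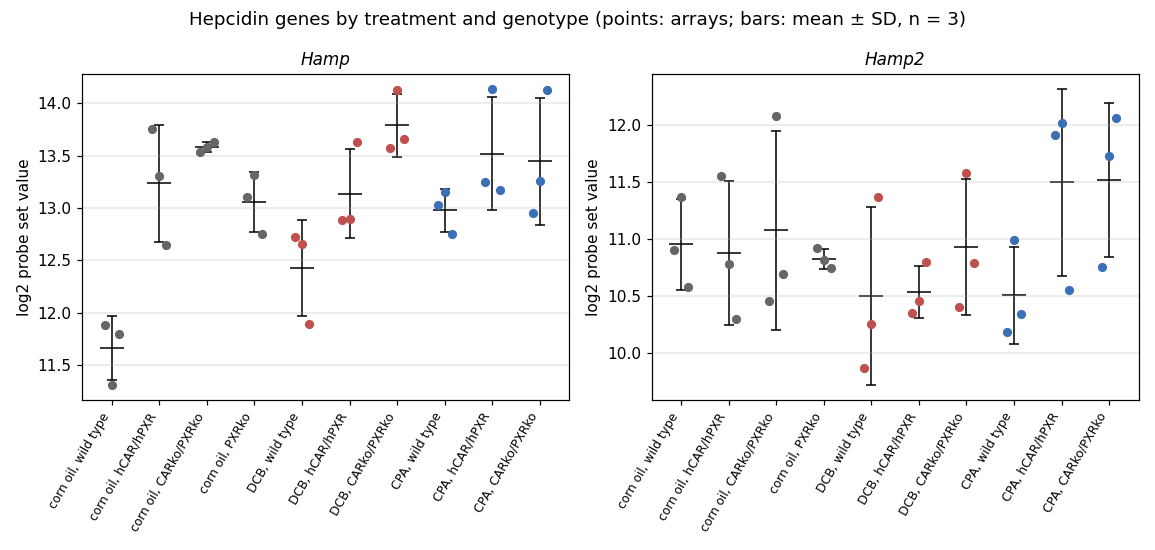
Log2 probe set values of Hamp (left) and Hamp2 (right) in the 10 groups; points are arrays and bars the mean ± SD of 3 arrays. The corn oil wild type arrays of Hamp (11.31 to 11.88) lie below all arrays of the other corn oil groups, while the Hamp2 groups overlap.

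In treated wild type mice Hamp was nearer to the level of the modified genotypes. Under CPA the wild type arrays read 13.02, 13.15 and 12.75, all above the corn oil arrays (26.1% of genes were apart, in either direction), and the rise was 1.32 ± 0.31 (95% interval 0.67 to 1.97, adjusted p = 0.0369); Hamp was the 1 gene of 9 called, against 1.12% of genes tested. That call was lost whichever of the 6 arrays was left out (adjusted p from 0.0700 to 0.207), and with the second Hamp probe set (adjusted p = 0.0595). Under DCB the wild type arrays read 12.72, 12.66 and 11.89, a difference of 0.76 ± 0.31 that was not called (adjusted p = 0.364), with replicate 3 just above the highest corn oil array (11.88).

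The Hamp difference from corn oil in hCAR/hPXR mice was -0.10 under DCB and 0.28 under CPA, and in CARko/PXRko mice 0.21 and -0.14, each ± 0.31 and none called. The CPA effect minus that in wild type mice was -1.03 for hCAR/hPXR (95% interval -1.95 to -0.11, adjusted p = 1) and -1.45 for CARko/PXRko mice (95% interval -2.37 to -0.53, adjusted p = 0.394). Neither difference of effects was called, and both contain the wild type corn oil arrays that the genotype comparison used. Among treated mice, Hamp under DCB was 1.37 higher in CARko/PXRko than in wild type mice (adjusted p = 0.127) and 0.71 higher in hCAR/hPXR mice (adjusted p = 0.554), with the arrays apart in both cases. That pattern held in 12.2% and 10.9% of all genes, in either direction. Under CPA the same differences were 0.47 and 0.54 (adjusted p = 0.483 and 0.646). None of the 9 genes was called by limma between genotypes under DCB (0.0391% of genes called for each genotype) or under CPA (1.88% for CARko/PXRko and 0.274% for hCAR/hPXR). Unadjusted p-values were under 0.05 for 3 of the 9 (hCAR/hPXR) and 1 of the 9 (CARko/PXRko) under DCB, and for 5 and 3 of the 9 under CPA. Of all 12795 genes, 1061 and 1093 were under 0.05 under DCB, and 1176 and 2003 under CPA, in the same order.

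The highest Hamp mean was in DCB CARko/PXRko mice (13.79 ± 0.30, SD, n = 3) and the lowest in corn oil wild type mice (11.66 ± 0.31), followed by DCB wild type (12.42 ± 0.46) and CPA wild type (12.98 ± 0.21). The 7 groups of modified genotypes had means from 13.06 to 13.79, each overlapping the next in order. The 2 Hamp probe sets correlated at r = 0.996 over the 30 arrays.

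Hamp2 was called by limma in 0 of the 21 comparisons and had an unadjusted p under 0.05 in 2. Its corn oil arrays read 10.91, 11.37 and 10.58 in wild type, 11.56, 10.78 and 10.30 in hCAR/hPXR, 10.46, 12.08 and 10.70 in CARko/PXRko and 10.92, 10.82 and 10.75 in PXRko mice, so all 4 genotypes overlapped. Treatment effects lay between -0.45 (DCB in wild type mice) and 0.62 (CPA in hCAR/hPXR mice), each ± 0.46. The correlation between Hamp and Hamp2 values was r = 0.33 over the 30 arrays, which share group structure and array quality. The Hamp2 probe set used is of the type whose probes can match other transcripts, and the second Hamp2 probe set was dim (mean 4.57, over the array's median on 0 arrays), so signal from Hamp transcripts cannot be told apart from that of Hamp2.

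Id1 and Smad7, which BMP signalling induces in the liver and of which Smad7 encodes an inhibitory SMAD, were called by limma in 0 of the 21 comparisons; unadjusted p-values were under 0.05 in 1 for Id1 and in 2 for Smad7. Id1 varied widely within groups: corn oil hCAR/hPXR arrays read 9.62, 8.33 and 7.61, and CPA CARko/PXRko arrays 7.54, 6.91 and 9.28. Smad7 read 7.43, 7.42 and 7.44 in corn oil wild type mice but 7.07, 6.73 and 8.39 in CPA CARko/PXRko mice. Under corn oil, where Hamp differed by genotype, Id1 was at 7.53, 7.30 and 8.40 in wild type and at 7.82, 8.38 and 8.15 in CARko/PXRko mice, with overlapping arrays. The nearest to a call was the Smad7 difference under DCB in hCAR/hPXR mice, -0.86 ± 0.36 (adjusted p = 0.155), which the second Smad7 probe set put at -0.91 (adjusted p = 0.0475).

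Array by array, these genes varied together within groups. After subtracting each group's mean, the deviations of Id1 and Smad7 over the 30 arrays correlated at r = 0.85 (Spearman's rho 0.83), and 1 of the tested genes correlated more closely with Id1. Hamp deviations correlated with those of Id1 at r = 0.68 (rho 0.63; 0.59 without the 2 farthest arrays), a value that 7 genes (0.0547%) exceeded, and with those of Smad7 at r = 0.64 (rho 0.56; 0.51 without the 2 farthest arrays), which 17 genes (0.133%) exceeded. Without the 4 arrays with muscle transcripts the 3 values were 0.89, 0.73 and 0.61. For Hamp2 the values were 0.35 with Hamp, 0.50 with Id1 and 0.51 with Smad7 (0.56 with Smad7 without the arrays with muscle transcripts). These are descriptions over arrays that share RNA preparation and normalization, and no p-value is given.

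**Figure D2:**
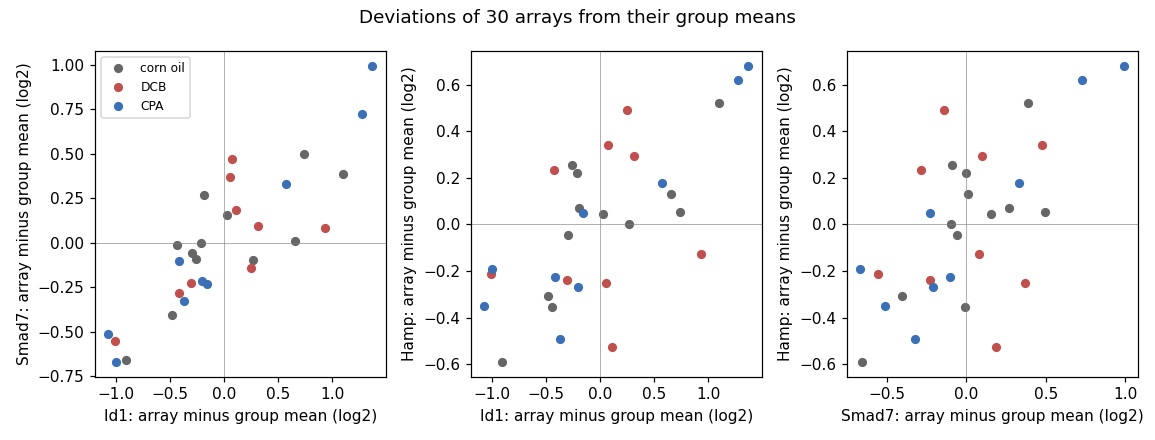
Deviation of each of 30 arrays from its group mean (log2), for Smad7 against Id1, Hamp against Id1 and Hamp against Smad7; colours mark the treatment. The points rise together, most closely for Id1 and Smad7 (r = 0.85).

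Under DCB, genes of iron uptake and sensing changed in both directions. Averaged over the 3 genotypes, Tfrc and Hfe rose and Tfr2 and Slc40a1 fell, which is 4 of the 9 genes called, where 13.4% of all genes tested were called (6.54% higher and 6.89% lower). In the single genotypes, 1 of 9 was called in wild type (Tfrc; 0.735% of all genes), 3 of 9 in hCAR/hPXR (Tfrc, Hfe and Tfr2; 7.64%) and 0 of 9 in CARko/PXRko mice (0.117%; 1 of the 9, Tfrc, had an unadjusted p under 0.05). No difference of the DCB effect between genotypes was called for any of the 9 genes (0% of all genes by limma, for each modified genotype against wild type; 398 and 324 genes at an unadjusted p under 0.05, and 0 of the 9 genes in either).

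**Figure D3:**
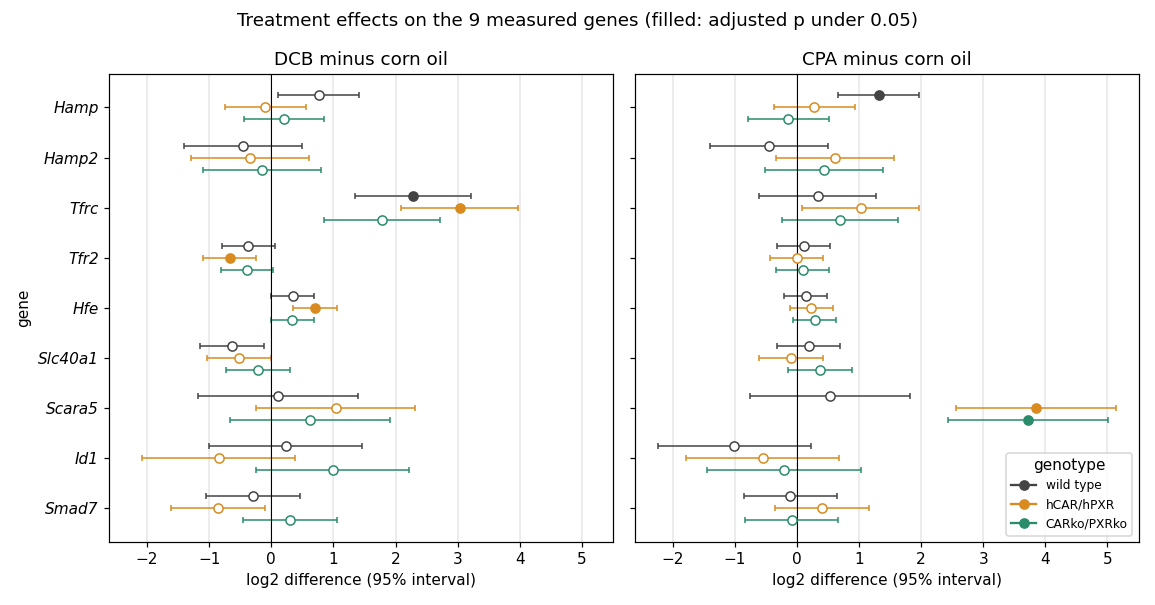
Log2 difference from corn oil of the 9 measured genes under DCB (left) and CPA (right) in the 3 treated genotypes, with 95% intervals from the model; filled points have an adjusted p under 0.05. Tfrc has the largest DCB differences (1.78 to 3.03) and Scara5 the largest CPA differences, in the modified genotypes (3.72 and 3.85).

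Tfrc encodes transferrin receptor 1. In wild type mice it read 8.54, 8.20 and 8.49 under corn oil and 10.80, 10.83 and 10.45 under DCB, a rise of 2.28 ± 0.45 (4.87-fold, adjusted p = 0.0102). In hCAR/hPXR mice it read 7.96, 8.62 and 9.46 under corn oil and 12.05, 11.72 and 11.37 under DCB, a rise of 3.03 ± 0.45 (8.18-fold, adjusted p = 0.000284). The arrays of the treated and control groups did not overlap in these 2 genotypes, where 21.7% and 23.9% of all genes were apart in either direction. In CARko/PXRko mice it read 8.17, 10.29 and 8.82 under corn oil and 11.67, 10.86 and 10.09 under DCB, with overlap, and the difference of 1.78 ± 0.45 was not called (adjusted p = 0.131). The corn oil array at 10.29 is the one with the most muscle transcripts; without it the difference was 2.38 (adjusted p = 0.0108), and without all 4 such arrays, which leaves 1 DCB array assumed to vary like the other groups, it was 3.17 (adjusted p = 0.00261).

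Averaged over the genotypes the Tfrc rise under DCB was 2.37 ± 0.26 (95% interval 1.82 to 2.91, 5.16-fold, adjusted p = 1.97e-06). The call in wild type mice was lost without corn oil replicate 2 (adjusted p = 0.0689) or DCB replicate 1 (adjusted p = 0.0762). It rested on 1 of 3 Tfrc probe sets: the other 2 were dim (means 4.79 and 3.83) and gave DCB differences of 0.28 (adjusted p = 0.0683) and 0.33 (adjusted p = 0.0048) averaged over the genotypes.

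Under CPA, Tfrc read 8.86, 8.65 and 8.72 in wild type, 9.46, 10.03 and 9.63 in hCAR/hPXR and 10.12, 9.65 and 9.59 in CARko/PXRko mice. The differences from corn oil were 0.33, 1.03 and 0.70, each ± 0.45 and none called (adjusted p = 0.251 for hCAR/hPXR and 0.388 for CARko/PXRko mice). Without the arrays with muscle transcripts, those of hCAR/hPXR (1.03, adjusted p = 0.0391) and CARko/PXRko mice (1.30, adjusted p = 0.0225) were called. None of the arrays left out is in an hCAR/hPXR group. There the difference stayed at 1.03, and only the spread estimated over all groups changed. Under corn oil the 4 genotype means of Tfrc lay at 8.41 to 9.09, with arrays that overlapped. The mean of 6 measured erythroid markers, of cells that carry much transferrin receptor, was 5.57 to 6.26 on all arrays.

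**Figure D4:**
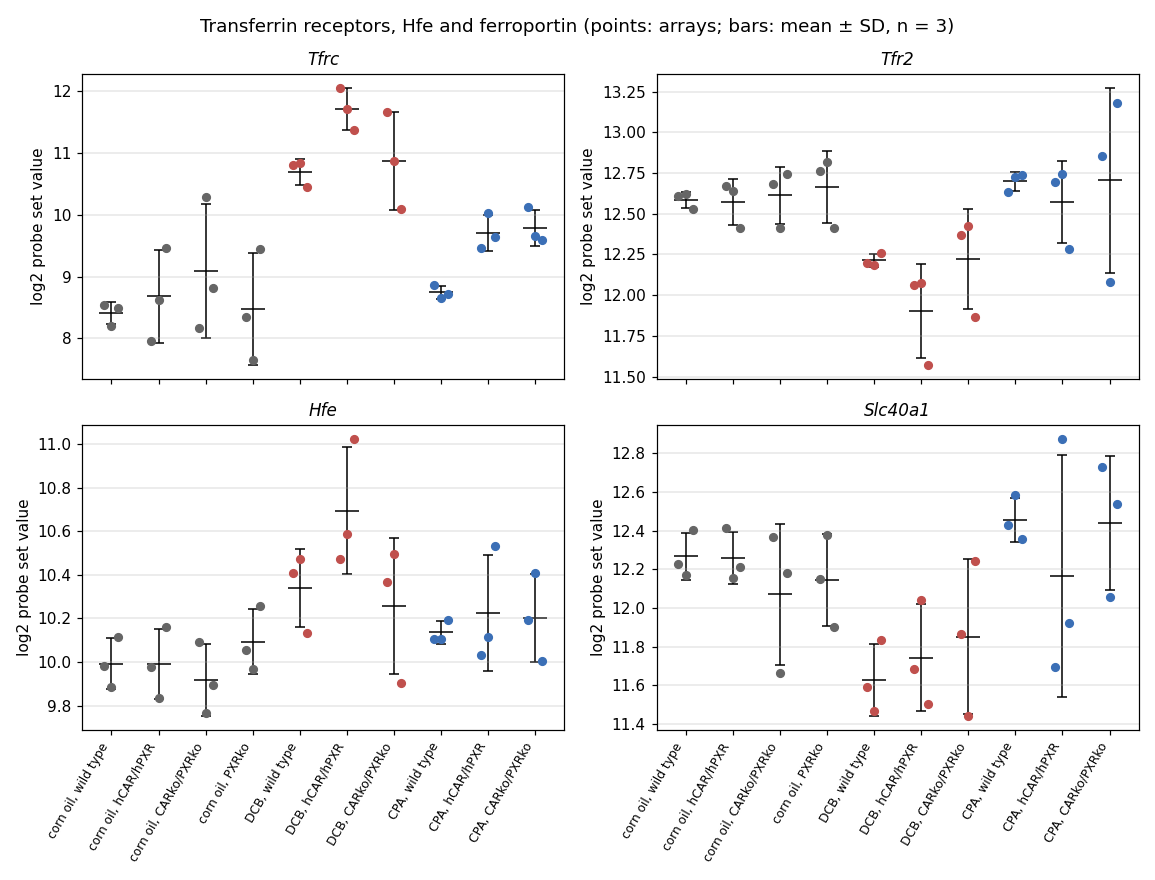
Log2 probe set values of Tfrc, Tfr2, Hfe and Slc40a1 in the 10 groups; points are arrays and bars the mean ± SD of 3 arrays. All DCB arrays of Tfrc lie at 10.09 or above, and the 3 DCB groups have the lowest means of Tfr2 (11.90 to 12.22) and of Slc40a1 (11.63 to 11.85), with single arrays that overlap other groups.

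Tfr2 encodes transferrin receptor 2, a hepatocyte sensor of transferrin-bound iron. In hCAR/hPXR mice it read 12.67, 12.64 and 12.41 under corn oil and 12.06, 12.08 and 11.57 under DCB, with no overlap, and fell by 0.67 ± 0.21 on the log2 scale (adjusted p = 0.0467). That call was lost in 4 of 6 fits that left out an array, without the filter on dim genes (adjusted p = 0.059) and when only the 2 groups compared were fitted (adjusted p = 0.143). It was also lost on the second Tfr2 probe set (-0.56, adjusted p = 0.13) and on the mean of both (-0.62, adjusted p = 0.0808). In wild type mice the DCB arrays (12.20, 12.19 and 12.26) lay below the corn oil arrays (12.61, 12.62 and 12.53), a difference of -0.37 ± 0.21 that was not called, and in CARko/PXRko mice the difference was -0.39 ± 0.21, not called. Averaged over the genotypes Tfr2 fell by 0.48 ± 0.12 under DCB (adjusted p = 0.00851). Its CPA effects were 0.11, 0.00055 and 0.09.

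Hfe encodes a protein that resembles class I histocompatibility molecules, binds transferrin receptor 1 and takes part in hepcidin control. In hCAR/hPXR mice it read 9.98, 9.84 and 10.16 under corn oil and 10.47, 10.59 and 11.02 under DCB, apart, a rise of 0.70 ± 0.17 (adjusted p = 0.0123). The call was lost without corn oil replicate 2 (adjusted p = 0.0781), without DCB replicate 3 (adjusted p = 0.0752) and when only the 2 groups were fitted (adjusted p = 0.136), and on the second Hfe probe set (0.46, adjusted p = 0.13). In wild type mice the DCB arrays (10.41, 10.47 and 10.13) were all above the corn oil ones (9.98, 9.88 and 10.11), with a difference of 0.35 ± 0.17, and in CARko/PXRko mice the difference was 0.34 ± 0.17; neither was called. Averaged over the genotypes Hfe rose by 0.46 ± 0.10 under DCB (adjusted p = 0.00238). Under CPA the average was 0.22 ± 0.10 and was not called (adjusted p = 0.142).

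Slc40a1 encodes ferroportin, the exporter that hepcidin blocks. In wild type mice it read 12.23, 12.17 and 12.40 under corn oil and 11.59, 11.47 and 11.83 under DCB, with all DCB arrays lower. The difference was -0.64 ± 0.25 in wild type, -0.52 ± 0.25 for hCAR/hPXR and -0.22 ± 0.25 for CARko/PXRko mice, and none was called alone. Averaged over the genotypes Slc40a1 fell by 0.46 ± 0.14 on the log2 scale (adjusted p = 0.0355), a call lost in 11 of 18 fits that left out an array (adjusted p up to 0.0826), on the second Slc40a1 probe set (-0.34, adjusted p = 0.168) and on the mean of both (-0.40, adjusted p = 0.0763). Under CPA its average difference was 0.15 ± 0.14, not called.

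Kupffer cells, the liver macrophages, carry much ferroportin, and their 11 markers moved too. Averaged over the genotypes, 9 of 11 fell under DCB (median -0.64, against -0.01 for all genes, of which 6.89% fell) and 9 of 11 fell under CPA (median -0.75; 8.64% of all genes fell). Their mean level was 9.06 to 9.26 on corn oil wild type arrays, 9.38 to 9.58 on corn oil hCAR/hPXR arrays and 8.88 to 9.19 on corn oil CARko/PXRko arrays, against 8.54 to 8.99, 8.34 to 8.68 and 8.44 to 8.60 under DCB; at least 10 of the 11 were over the array's median on every array. The part of these cells in the Slc40a1 result was not tested. In whole liver, fewer cells of a type and less RNA per cell cannot be told apart.

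In DCB wild type mice the arrays of 6 of the 9 genes were apart from corn oil, 3 higher (Hamp, Tfrc and Hfe) and 3 lower (Tfr2, Slc40a1 and Smad7), where 21.7% of all genes were apart in either direction. Across the 10 group means, Tfrc correlated with Hfe at r = 0.88, with Tfr2 at r = -0.89 and with Slc40a1 at r = -0.76, as a description of groups that share the DCB treatment.

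Scara5 encodes a scavenger receptor that takes up ferritin-bound iron without transferrin. It rose under CPA in both modified genotypes. In hCAR/hPXR mice it read 6.76, 6.05 and 5.90 under corn oil and 8.62, 11.65 and 9.98 under CPA, a rise of 3.85 ± 0.62 (95% interval 2.56 to 5.13, 14.4-fold, adjusted p = 0.00045). In CARko/PXRko mice it read 6.58, 7.23 and 6.74 under corn oil and 10.54, 10.28 and 10.89 under CPA, a rise of 3.72 ± 0.62 (95% interval 2.44 to 5.01, 13.2-fold, adjusted p = 0.000824). Treated and control arrays did not overlap in either genotype (22.7% and 23.7% of all genes were apart), and Scara5 was the 1 gene called of the 9, where 4.42% and 5.49% of all genes were called.

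In wild type mice Scara5 read 8.72, 7.96 and 6.99 under corn oil and 9.06, 7.65 and 8.56 under CPA, with overlap and a difference of 0.53 ± 0.62 (adjusted p = 0.905). The CPA effect was larger than in wild type mice by 3.32 in hCAR/hPXR mice (95% interval 1.50 to 5.13, adjusted p = 0.469), both labelled 6 days, and by 3.19 in CARko/PXRko mice (95% interval 1.37 to 5.01, adjusted p = 0.326), whose labelled durations differ. Neither difference was called, although 0.0625% and 0.0703% of all genes were. Part of the contrast lies in the controls: under corn oil, Scara5 was 1.30 lower in the modified genotypes than in wild type mice (adjusted p = 1). Under CPA it was 1.66 higher in hCAR/hPXR than in wild type mice, both labelled 6 days, with overlap (adjusted p = 0.391). It was 2.15 higher in CARko/PXRko mice under CPA than in wild type mice, whose labelled durations differ (adjusted p = 0.0765). Averaged over the 3 genotypes the rise under CPA was 2.70 ± 0.36 (adjusted p = 1.08e-05), 1 of the 9 genes called where 14% of all genes were. DCB differences were 0.11 in wild type, 1.04 for hCAR/hPXR and 0.62 for CARko/PXRko mice, none called.

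The rise in the modified genotypes was called whichever array was left out. A second Scara5 probe set, over the array's median on 4 of 30 arrays (mean 5.25), gave -0.11 for hCAR/hPXR and 0.37 for CARko/PXRko mice and was not called, so the result rests on 1 probe set.

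**Figure D5:**
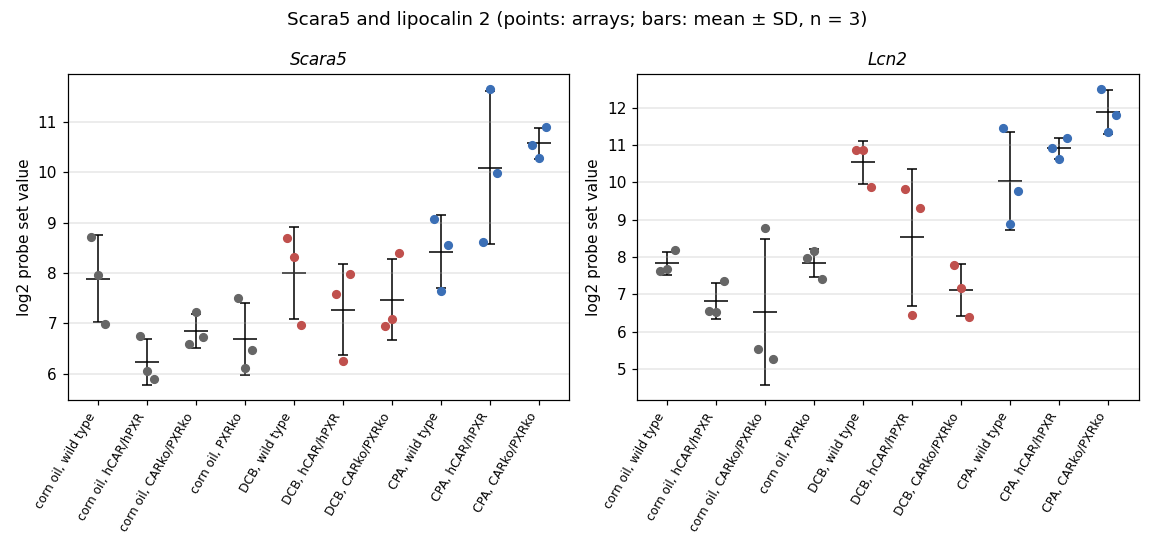
Log2 probe set values of Scara5 and Lcn2 in the 10 groups; points are arrays and bars the mean ± SD of 3 arrays. CPA arrays of the hCAR/hPXR and CARko/PXRko mice lie above their corn oil arrays for both genes. For Lcn2 the wild type CPA arrays (8.89 to 11.46) and DCB arrays (9.88 to 10.88) also lie above the wild type corn oil arrays (7.62 to 8.19).

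Of 49 other iron genes named, 45 had a probe set of their own and 43 were tested. Lcn2 encodes lipocalin 2, which binds iron-loaded siderophores and is also an acute phase protein. Its rise under CPA was 4.10 for hCAR/hPXR (adjusted p = 0.00208) and 5.36 for CARko/PXRko mice (adjusted p = 0.000209), and it was the 1 gene of the 43 called higher in each, where 1.52% and 2.18% of all genes were. Corn oil CARko/PXRko arrays of Lcn2 read 5.52, 8.79 and 5.27, and the array at 8.79 is the one with the most muscle transcripts. In wild type mice the Lcn2 mean was 7.83 ± 0.31 under corn oil and 10.04 ± 1.31 under CPA (SD, n = 3), with no call. Acute phase genes Fgl1, Orm1 and Hp were called higher in CPA CARko/PXRko mice (3 of 12, against 2.18% of all genes).

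Under DCB, Fth1, which encodes the heavy chain of the iron store ferritin, was called in each genotype. The rise was 0.51 in wild type (adjusted p = 0.000776), 0.49 in hCAR/hPXR (adjusted p = 0.000406) and 0.38 in CARko/PXRko mice (adjusted p = 0.0417), and 0.46 ± 0.04 on average. Its 9 DCB arrays lay at 14.72 to 14.87 and the 9 matching corn oil arrays at 14.22 to 14.48. NRF2 is a stress factor of which Fth1 is a known target. Of 9 genes listed as NRF2 targets, 4 rose under DCB in wild type, 5 for hCAR/hPXR and 2 for CARko/PXRko mice. Of all genes, 0.61%, 3.29% and 0.117% rose there. Under CPA the Fth1 mean was 14.56 in wild type mice (corn oil 14.26), with arrays apart. For hCAR/hPXR it was 14.56 (corn oil 14.33), also apart, and for CARko/PXRko 14.50 (corn oil 14.41), with overlap. That overlap comes from the corn oil array at 14.48, the one with the most muscle transcripts. The other corn oil CARko/PXRko arrays read 14.40 and 14.34. Fth1 was not called in any of these single genotypes under CPA. Of the 9 NRF2 targets, 0, 1 and 1 were called higher under CPA, in that order of genotypes. A part of NRF2 in the Fth1 values was not tested.

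The serine protease matriptase-2, from Tmprss6, cuts hemojuvelin and lowers hepcidin. Tmprss6 fell under DCB in hCAR/hPXR mice by 0.81 ± 0.19 (adjusted p = 0.0122) and on average by 0.64 ± 0.11 (adjusted p = 0.000437). Its DCB arrays in wild type mice (10.98 to 11.37) lay below the corn oil arrays (11.61 to 11.93). For CARko/PXRko they lay at 11.06 to 11.57, against 11.50 to 12.01 under corn oil, with overlap. The corn oil array at 11.50 is the one with the most muscle transcripts, and the others read 12.01 and 11.93. The DCB arrays at 11.06 and 11.26 also hold muscle transcripts. Tmprss6 was not called under DCB in wild type or CARko/PXRko mice. The Hamp difference under DCB was 0.76 in wild type mice, with arrays apart. It was -0.10 for hCAR/hPXR and 0.21 for CARko/PXRko, and none of these Hamp differences was called. A part of Tmprss6 in the Hamp values was not tested. In DCB hCAR/hPXR mice 2 of the 43 genes rose and 5 fell, where 3.29% of all genes rose and 4.35% fell. Fth1 and the iron-sulphur cluster gene Glrx5 (0.48, adjusted p = 0.0435) rose, while Tmprss6, the metal transporter Slc39a8 (-0.65, adjusted p = 0.0163), the ligand gene Bmp4 (-0.85, adjusted p = 0.026), the BMP inhibitor Bambi (-0.73, adjusted p = 0.0351) and the ferrireductase Steap4 (-1.07, adjusted p = 0.0422) fell. In these mice 7 of 11 Kupffer cell markers and 4 of 10 stellate cell markers fell as well, and their part was not tested.

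Averaged over the genotypes, 5 of the 43 rose and 7 fell under DCB, and 4 rose and 7 fell under CPA, where 6.54% of all genes rose and 6.89% fell under DCB and 5.35% rose and 8.64% fell under CPA. The 43 genes had medians of -0.10 and -0.08 against -0.01 for all genes in both. Under DCB the average falls included the plasma ferroxidase gene Cp (-0.24, adjusted p = 0.00766) and the mitochondrial transporter gene Abcb10 (-0.60, adjusted p = 0.00848), and under CPA those of Bmp4 (-0.68, adjusted p = 0.000953) and Smad1 (-0.48, adjusted p = 0.00133). Under CPA the average rise of Hjv, the hemojuvelin gene, was 0.65 ± 0.18 (adjusted p = 0.0183), and the BMP target Id2 fell by 0.68 ± 0.18 (adjusted p = 0.0128). In CPA CARko/PXRko mice the signalling gene Smad1 fell by 0.73 (adjusted p = 0.0118) and Nfs1, which supplies sulphur for iron-sulphur clusters, by 0.44 (adjusted p = 0.0021); for Nfs1 the effect differed from wild type by -0.60 (adjusted p = 0.0486). Under CPA, Bmp6, the main BMP ligand in iron sensing, was 0.67 higher in CARko/PXRko than in wild type mice (adjusted p = 0.0335). For Nfs1 and Bmp6 alike, these comparisons set CPA mice labelled 3 days (CARko/PXRko) against CPA mice labelled 6 days (wild type), so genotype and duration cannot be told apart. In CPA hCAR/hPXR mice Bmp4 fell by 0.80 (adjusted p = 0.0471). In CPA wild type mice 0 of the 43 were called by limma, with 6 at an unadjusted p under 0.05. In each of the 5 comparisons of genotypes under corn oil, in 2 of which Hamp was called, 0 of the 43 were called by limma, with 0 to 2 at an unadjusted p under 0.05.

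The genes whose 10 group means tracked those of Hamp most closely were Chadl (r = 0.93), Dapk2 (r = 0.93) and the phospholipase gene Pla2g12a (r = 0.89). For Tfrc they were Lrrc59 (r = 0.996), Ppp1r14b (r = 0.98) and Ost4 (r = 0.98), and for Scara5 4930592C13Rik (r = 0.96), 0610038B21Rik (r = 0.95) and the arsenic methyltransferase gene As3mt (r = 0.95). For Hamp2 they were Fmc1, Atp5e and Csgalnact2, for Id1 Ncoa5, Sox18 and Wls, and for Smad7 Zfp280d, Spty2d1 and Prpf4b. For Tfr2 they were Ndufa1, Ndufv3 and Cggbp1, for Hfe Pigv, Ndufb1 and Snx7, and for Slc40a1 Dhdh, Cisd1 and 2300009A05Rik. These are the closest of 12795 genes over 10 points and are given as descriptions.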

How the data were processed

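Liver RNA was hybridised to 30 arrays. The deposited values are log2 probe set summaries made by the authors with RMA, per the submitters' processing notes; no version is given in the sources used here. RMA corrects background, normalizes between arrays and summarizes probes, so real shifts shared by most genes would be removed. The table held 45037 probe sets, of which 34945 were annotated to 1 gene, 932 to several and 9160 to none; array medians lay between 5.36 and 5.44. The number of arrays limits the precision. A gene was tested if its probe set was brighter than the median of at least 3 arrays. One model with 10 group means covered the 30 arrays (limma 3.58.1, lmFit and eBayes, in R 4.3.3; 20 residual degrees of freedom), and p-values were adjusted over 12795 genes in each of 21 comparisons; the code was tested on simulated data. The text names all 10 genes, up to 4 called iron genes with the smallest p in each comparison, the 3 genes most like each gene over group means, and Nr1i3 and Nr1i2. Lipocalin 2, Fth1 and Tmprss6 fall under this rule; among the genes named for hCAR/hPXR under DCB, Bambi, Steap4 and Glrx5 are beyond it and were named after their values were seen, as were the acute phase genes and Hjv and Id2. The genes, lists and tests were chosen with earlier results of these data known. Alternatives varied the normalization, filter, probe set, variance model, arrays fitted and a replicate block.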

Additional observations from a re-analysis of the deposited data

How the results depend on the processing

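Directions of the called differences were kept in every alternative run except one: the dim second Scara5 probe set put the CPA effect in hCAR/hPXR mice at -0.11. Apart from leaving out arrays, which lost 29 calls, other probe sets lost the most, 10 (4 of Tfrc, 2 of Scara5, and 1 each of Hamp, Tfr2, Hfe and Slc40a1). The reversed Scara5 effect comes on top of these 10, as it was not called either (adjusted p = 0.748). Centring or normalizing the arrays again, the trended robust variance and the 75th percentile filter changed no call of the 9 genes. With all probe sets of a gene averaged, 0 of 9 genes (in place of 1) were called under DCB in wild type mice and 3 (in place of 1, adding Tfrc and Hfe) under CPA averaged over genotypes; besides Tfrc, Tfr2 in hCAR/hPXR mice and Slc40a1 on average lost their DCB calls. Without the arrays with muscle transcripts, 1 gene was called under DCB in CARko/PXRko mice, and under CPA 2 each for hCAR/hPXR, for CARko/PXRko and on average, Tfrc being the addition. For hCAR/hPXR only the spread estimated over all groups changed, as no array with muscle transcripts is in those groups. Fitting only the groups compared left 1 of 3 calls under DCB in hCAR/hPXR mice. Same-numbered arrays of different groups had deviations correlating at a median r of 0.012 (135 pairs, -0.59 to 0.57). For differently numbered arrays the median was 0.0081 (270 pairs, -0.64 to 0.67). Correlations over 0.1 were found in 42 of the 135 and 59 of the 270 pairs. These values cannot settle whether the numbers mark a batch or a pairing in some groups. The fit with a replicate block called 2 of 9 in place of 3 under DCB in hCAR/hPXR mice (Tfr2, adjusted p = 0.0507) and changed no other call.

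Leaving out an array gave 0 to 1 genes under DCB in wild type mice and likewise in CARko/PXRko mice, 1 to 3 under DCB in hCAR/hPXR mice, 0 under CPA in wild type mice in all 6 fits, and 1 to 2 under CPA on average, where Hamp or Tfrc was added. It gave 0 to 1 for hCAR/hPXR, for CARko/PXRko and for all modified genotypes against wild type under corn oil, and for CARko/PXRko against wild type under DCB (Hamp 1.47, adjusted p = 0.0479, without DCB CARko/PXRko replicate 1).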
